A study of Mus musculus with 5 samples.

Results

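MOL4-5/6 is a population of mature oligodendrocytes (MOL) of the adult mouse corpus callosum, here the 350 of 2853 OL lineage cells to which the authors' deposited table gives that label. It stands beside MOL6a (451 cells) and MOL6b (430 cells), which like it are marked by Ptgds, and beside MOL2a and MOL2b (665 cells together), which are not. The cells came from P60 mice whose line name joins Emx1::Cre, a driver of the dorsal forebrain, with Sox10::Cre and the reporter LoxP-GFP-STOP-TdTom. In this line TdTom+ cells of the OL lineage derive from dorsal and GFP+ cells from ventral progenitors. Corpus callosum tissue of 2 mice was pooled and sorted into 1 TdTom+ and 1 GFP+ sample, and each gave 1 10x Genomics 3′ version 2 library, of 1901 and 952 cells. Both samples came from the same mice and none was treated. Cre alleles were hemizygous, and the number of reporter copies in these mice is not given. The 3 spinal cord samples of the series were not analysed here. With 1 library per origin no test was made, and every interval (95%) covers counting error only, not differences between mice, sorts or preparations. Intervals of ratios treat the summed UMIs as 1 count and leave out the spread between cells. They are too narrow for genes that vary widely between cells, such as Ptgds. The 12 labels rest on clustering of these same cells with these same genes, although the methods give fewer clusters than there are labels and do not say which was divided. A gene's difference between labels is therefore a description and supports nothing on its own. The library also entered the labels, because the authors normalised the 2 libraries separately and integrated them before clustering. Likeness of the libraries within a label is therefore not independent of how the labels were made.

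Oligodendrocytes wrap axons of the central nervous system in myelin, and mature ones fall into populations that differ in their expression rather than in whether they make myelin. Ptgds encodes the lipocalin-type prostaglandin D2 synthase, an enzyme that converts prostaglandin H2 to prostaglandin D2 and is also a carrier of small lipophilic molecules. It is the gene by which MOL types 5 and 6 are commonly recognised, as Klk6, which encodes a secreted serine protease, is for MOL type 2.

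The study located these populations in tissue with padlock probes, each designed against a stretch of 40 bases of the transcript and applied after its reverse transcription. It used 5 targets for each of the 3 marker genes below, and 4 of these are shown as examples of what the probes read in tissue. They were chosen here from the targets that lie in coding sequence, which some others of Ptgds and Klk6 do not or only in part. They are written 5′ to 3′ on the transcript strand, and were matched to mouse genome GRCm38 (mm10); capitals mark the bases of the second exon where a target crosses an exon junction. Of the Ptgds targets shown, 1 lies in exon 2 at chr2:25469044-25469083 and 1 in exon 4 at chr2:25468105-25468144, both on the minus strand. The Grm3 target shown joins exons 2 and 3 at chr5:9570765-9589605 on the minus strand, and the Klk6 target shown joins exons 3 and 4 at chr7:43826103-43826823 on the plus strand, the intron included in both spans.
Ptgds: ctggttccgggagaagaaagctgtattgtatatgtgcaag
Ptgds: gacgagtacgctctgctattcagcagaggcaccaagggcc
Grm3: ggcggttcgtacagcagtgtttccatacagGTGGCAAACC
Klk6: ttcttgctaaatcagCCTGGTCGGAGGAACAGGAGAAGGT

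The label held 252 of 1901 TdTom+ cells, or 13.3% (11.8% to 14.9%), and 98 of 952 GFP+ cells, or 10.3% (8.44% to 12.4%), in exact Clopper-Pearson intervals. The intervals overlap between 11.8% and 12.4%. TdTom+ cells were 72.0% of the label (67.0% to 76.6%), against 66.6% of all cells (64.9% to 68.4%), 66.5% of MOL6a and 68.4% of MOL6b. Both origins therefore contributed cells to MOL4-5/6, and the share of each could not be set against a replicate. Sequencing depth was alike in both libraries, with a median of 2918.5 UMIs per MOL4-5/6 cell in TdTom+ and 2865 in GFP+, and 793291 and 282383 UMIs summed over the label. The GFP+ sums, from fewer cells, are the less precise ones throughout. The median was near that of MOL6a (3139.5 and 3014) and MOL6b (2866.5 and 3027.5) and below that of MOL2a (3962 and 4001) and MOL2b (3887.5 and 4261). The median mitochondrial share was 1.48% of a cell's UMIs in TdTom+ and 1.55% in GFP+. The libraries shared 1 cell barcode, and 0 of the cells that carry it were MOL4-5/6.

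Ptgds, on chromosome 2 (25466709 to 25470046, minus strand), was abundant in MOL4-5/6 but not at its highest there. UMIs were summed over the cells of a label and library and given per 1000000 UMIs (CPM). In MOL4-5/6, Ptgds stood at 10003 CPM in TdTom+ and 10280 CPM in GFP+ cells, against 18565 and 19084 CPM in MOL6a and 15338 and 16452 CPM in MOL6b. MFOL1, a population of myelin-forming oligodendrocytes, had 11203 and 13310 CPM, above MOL4-5/6 in both libraries, and MOL1 had 9356 and 13352 CPM, below it in TdTom+ and above it in GFP+. Levels were far lower in MOL2/4 (4628 and 2825 CPM), MOL2b (1602 and 1306 CPM), MOL2a (664 and 868 CPM) and oligodendrocyte precursors (OPC; 406 and 408 CPM). The order MOL6a, MOL6b, MOL4-5/6 and MOL2 was the same in both libraries. The deposited label therefore carries its marker, at a level between MOL6b and MOL2. The part of the name that refers to MOL type 4 was not checked, since no list of MOL4 markers was fixed.

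**Figure D1:**
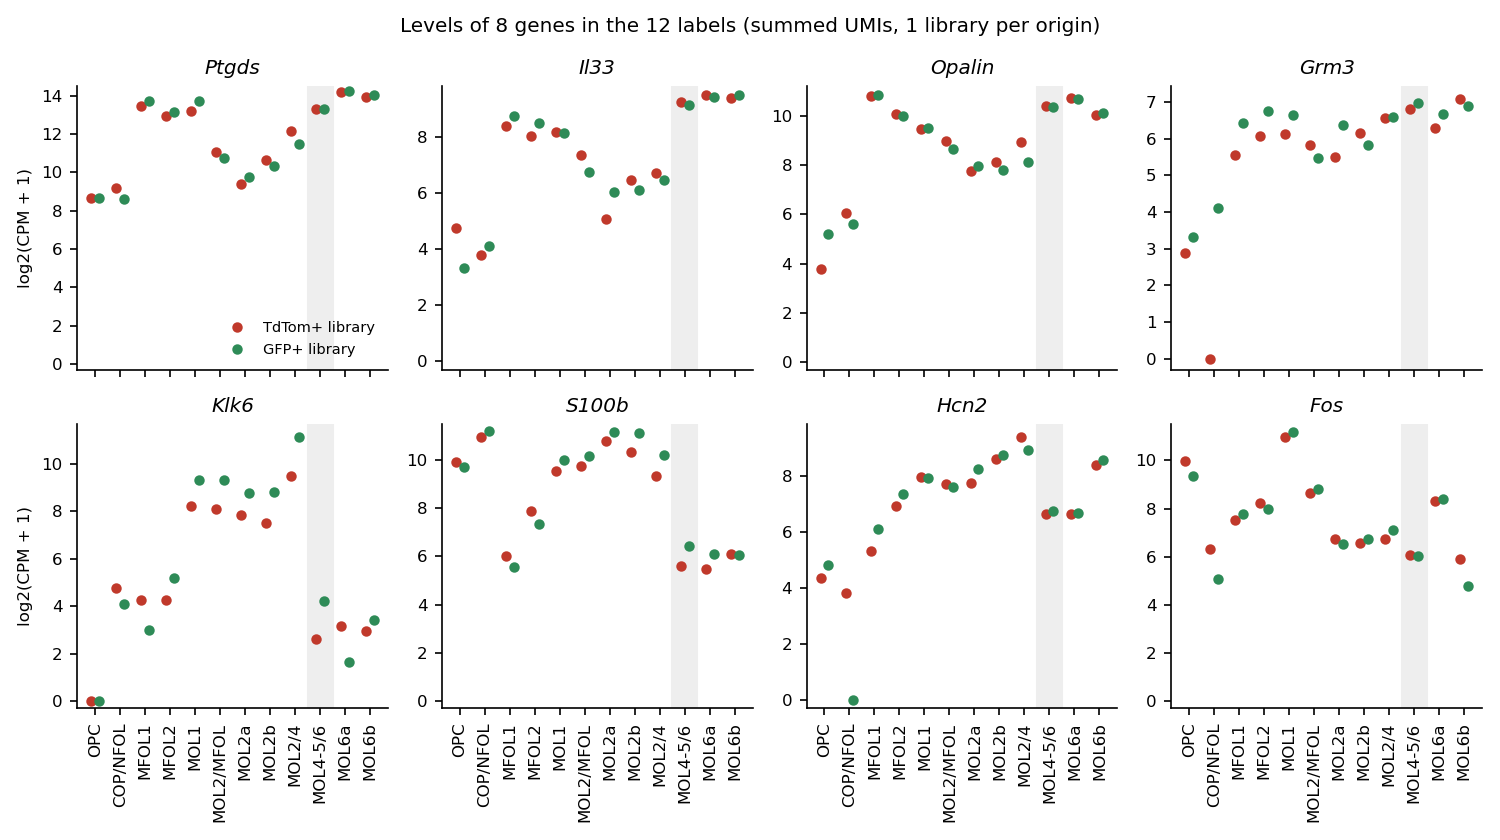
Levels of marker genes (log2 of CPM + 1) by label, with 1 point for the TdTom+ and 1 for the GFP+ library and no replicate error. MOL4-5/6 has Ptgds at 10003 and 10280 CPM, below MOL6a and MOL6b and above MOL2a and MOL2b, with Klk6 and S100b far below their MOL2 levels.

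Cell by cell, Ptgds varied widely inside the label. Each cell was thinned to 2400 UMIs to compare cells at equal depth, which left out 28 TdTom+ and 17 GFP+ cells of MOL4-5/6, 27 and 17 of MOL6a and 42 and 15 of MOL6b. Of the remaining cells 99.6% in TdTom+ (97.5% to 100%) and 100% in GFP+ (95.5% to 100%) had at least 1 Ptgds UMI, and without thinning the shares were 99.6% and 100%. In OPC, which should lack the gene, the thinned shares were 63.4% and 50%, at median depths before thinning of 2909 and 2837 UMIs. The share with a single UMI therefore says less than the level. The median thinned cell of MOL4-5/6 had 21 Ptgds UMIs in TdTom+ and 22 in GFP+, against 39 and 39 in MOL6a, 34 and 36 in MOL6b, and 1 and 0 in MOL2a and MOL2b together. One cell in 10 had 8 UMIs or fewer in TdTom+ (7 in GFP+), and 1 in 10 had 43 or more (46 in GFP+), with the highest cell at 78 and 68. The median of MOL6a was reached by 35 of 224 TdTom+ cells (15.6%) and 14 of 81 GFP+ cells (17.3%), and that of MOL6b by 56 (25%) and 16 (19.8%). At the low end, 191 TdTom+ (85.3%) and 66 GFP+ cells (81.5%) lay at or above the 90th percentile of MOL2a and MOL2b, so the distributions of the labels overlap on both sides.

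**Figure D2:**
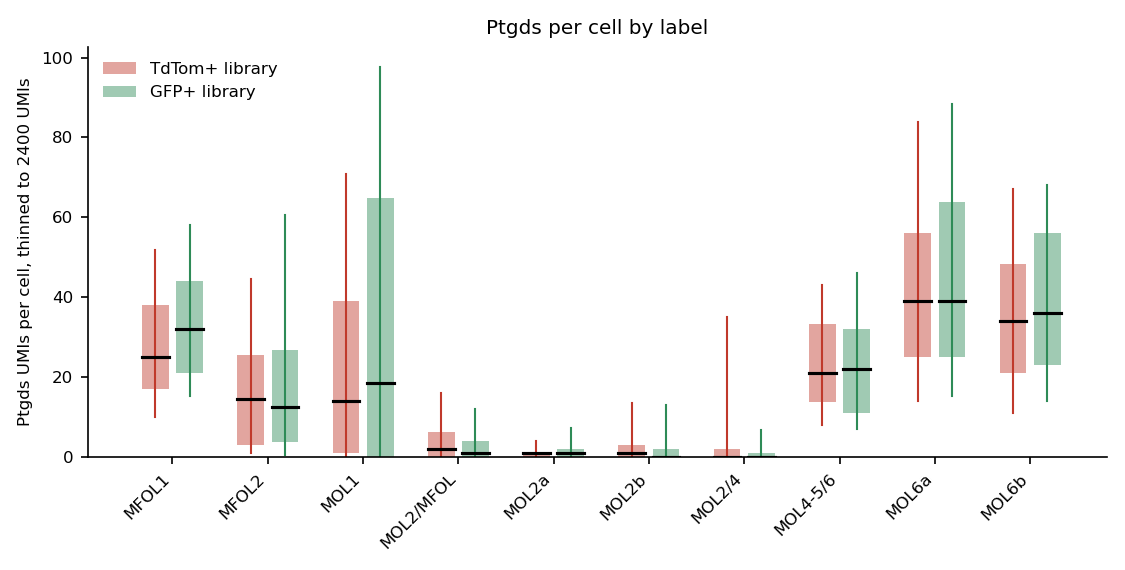
Ptgds UMIs per cell after thinning to 2400 UMIs, by label and library. The median MOL4-5/6 cell has 21 UMIs in TdTom+ and 22 in GFP+, between MOL6b (34 and 36) and MOL2a with MOL2b (1 and 0), and the spread over cells overlaps that of its neighbours.

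By the ratio of variance to mean, few other genes varied as Ptgds did among MOL4-5/6 cells. Over 1380 genes the median ratio of variance to mean of the thinned counts was 1.03 in TdTom+ and 1.02 in GFP+, where counting alone gives about 1. Where cells differ, this ratio grows with a gene's mean, and it was not adjusted for that. Ptgds had a mean of 24.5 and 23.8 UMIs, so its rank does not show that it varied most for its level. The ratio passed 2 in both libraries for 5 genes, of which those named here were chosen after their values were seen. Malat1, a nuclear noncoding RNA, had ratios of 13.3 and 9.34, and Ptgds followed with 8.97 and 9.86. The ferritin heavy chain gene Fth1 had 3.95 and 4.76, and Xist, the RNA of the inactive X chromosome, 2.14 and 2.09. Of these 5, Malat1 led in TdTom+ and Ptgds in GFP+. Across cells (224 and 81, sharing a library and thinned to 1 depth), Spearman's rho with Ptgds was 0.31 and 0.38 for Apoe, which encodes a lipid carrier, and -0.22 and -0.22 for Trf, which encodes transferrin. For Il33, another gene of MOL5/6, it was only 0.15 and 0.10.

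Il33, which encodes a nuclear cytokine, had 606 CPM in TdTom+ and 567 CPM in GFP+, close to MOL6a (731 and 699) and MOL6b (670 and 730) and well above MOL2a (33.1 and 64.4). It was found in 71.4% of thinned MOL4-5/6 cells in TdTom+ (65.0% to 77.2%) and 66.7% in GFP+ (55.3% to 76.8%), against 2.44% and 3.33% of OPC (unthinned, 77.4% and 73.5% against 6.25% and 2.86%). Grm3, a metabotropic glutamate receptor gene, was sparse, with 111 and 124 CPM in MOL4-5/6, 77.4 and 100.4 CPM in MOL6a and 134 and 119 CPM in MOL6b. MOL4-5/6 and MOL6b changed order with the library, while MOL6a was lowest in both. The log2 ratio of MOL4-5/6 over MOL6a was 0.51 (0.06 to 0.98) in TdTom+ and 0.30 (-0.37 to 0.96) in GFP+. Car2, which encodes carbonic anhydrase 2, had 4437 and 4582 CPM. Jph4, a junctophilin gene, had 408 and 368 CPM, Qdpr, which encodes a pteridine reductase, 3276 and 3393 CPM, and the small heat shock protein gene Cryab 6560 and 6569 CPM. These values differed little between the 2 libraries.

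The 6 listed markers of MOL2 were lower in MOL4-5/6 than in MOL2, by unequal amounts. In MOL4-5/6, Klk6 was at 5.04 CPM in TdTom+ and 17.7 CPM in GFP+ cells, against 199 and 446 CPM in MOL2a and MOL2b together. It was found in 4 of 224 and 5 of 81 thinned cells, 1.79% (0.489% to 4.51%) and 6.17% (2.03% to 13.8%), and unthinned in 1.59% and 5.10%. S100b, which encodes a calcium-binding protein, had 47.9 and 85.0 CPM against 1481 and 2257 CPM, and Hopx, a homeodomain gene, 17.7 and 17.7 CPM against 220 and 262 CPM. Anxa5, which encodes an annexin, had 31.5 and 21.2 CPM against 115 and 142 CPM in MOL2a and MOL2b together, and Mgst3, a microsomal glutathione S-transferase gene, 12.6 and 28.3 CPM against 98.2 and 132 CPM. Spock3, a proteoglycan gene, was less sharply lower, with 140 and 166 CPM against 340 and 337 CPM, and was near its level in MOL6a (130.0 and 129.7 CPM).

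MOL6b was the label most like MOL4-5/6. Across 1624 genes the log2 CPM of the label correlated with that of MOL6b at r = 0.983, MOL6a at 0.979, MFOL1 at 0.953 and MOL2b at 0.946 (both libraries summed; genes are not independent replicates). Genes more than 0.5 apart on the log2 scale numbered 96 against MOL6b (5.91%), 121 against MOL6a (7.45%) and 232 against MOL2b (14.3%). The same order appeared among single cells. Of the 20 nearest neighbours of a MOL4-5/6 cell, taken in 30 principal components, 41.5% on average carried its own label, 25.3% were MOL6b and 16% MOL6a, where these labels make up 12.3%, 15.1% and 15.8% of all cells. The own share was 41.2% in TdTom+ and 42.4% in GFP+. For 201 of 350 cells (57.4%) the most frequent neighbour label was their own, for 81 (23.1%) it was MOL6b and for 43 (12.3%) MOL6a.

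**Figure D3:**
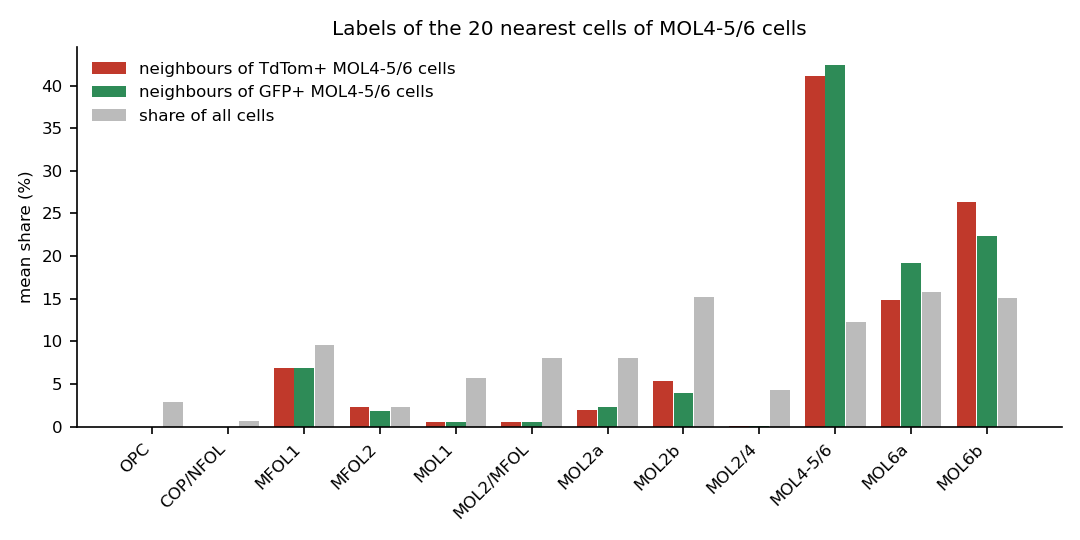
Mean share (percent) of each label among the 20 nearest neighbours of MOL4-5/6 cells, with the label's share of all cells beside it. MOL4-5/6 cells lie next to their own label (41.5%), MOL6b (25.3%) and MOL6a (16%), while MOL2b, which is 15.2% of all cells, gives 4.99% of neighbours.

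The label was less compact than MOL6a and MOL6b. Only 89 MOL4-5/6 cells (25.4%) had more than 10 of their 20 neighbours in their own label, against 303 MOL6a cells (67.2%) and 241 MOL6b cells (56.0%). The mean own share was 64.8% in MOL6a, 55.4% in MOL6b and 64.7% in MOL2b, and 41.8% in MOL1, a smaller label of 161 cells. Of all 12 labels only MFOL2, with 66 cells, had a lower own share (2.88%). Few genes were lowest in MOL4-5/6, and an intermediate number highest. Of 1523 genes, 77 (5.06%) were highest in it of the 7 mature labels in both libraries, where the others had 56 to 246, and 20 (1.31%) were lowest in it, where the others had 37 to 591. The margins at the top were small. Dbi, which encodes an acyl-CoA-binding protein and was chosen after its values were seen, had 2296 and 2631 CPM against 1959 and 2146 CPM in MOL6a, the next label.

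To describe how MOL4-5/6 differed from each population, a gene was counted as higher or lower where its log2 ratio of CPM passed 0.5 in each of the 2 libraries, with 1 CPM added to every value. Genes were tested where the mean over both labels and libraries reached 100 CPM. The comparisons share the MOL4-5/6 cells, so they are given side by side and not overlapped. A gene that reached it only through the label where it is high had to differ. Against MOL6a, 53 of 1539 genes were lower past the limit (3.44%) and 1 was higher (0.065%), or 5 after thinning. Over all tested genes, 575 were above 0 in both libraries and 463 below. With no filter on level, 583 were higher and 623 lower. Against MOL6b more genes were higher, with 24 of 1487 past the limit (1.61%) and 8 lower (0.538%), but 487 and 556 with no filter. Against MOL2a and MOL2b, 64 of 1523 genes were higher (4.2%) and 77 lower (5.06%). Each library alone gave more, 23 higher and 98 lower than MOL6a in TdTom+ and 71 and 121 in GFP+, and 57 and 13 against MOL6b in TdTom+ and 141 and 61 in GFP+. Against MOL2a and MOL2b the numbers were 79 and 106 in TdTom+ and 164 and 160 in GFP+, where the balance turned. The median log2 ratio of all tested genes was between 0.02 and 0.06 in each comparison and library. Across genes the ratios of the 2 libraries correlated at r = 0.575 for MOL6a, 0.437 for MOL6b and 0.825 for MOL2, and so repeated best for MOL2.

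**Figure D4:**
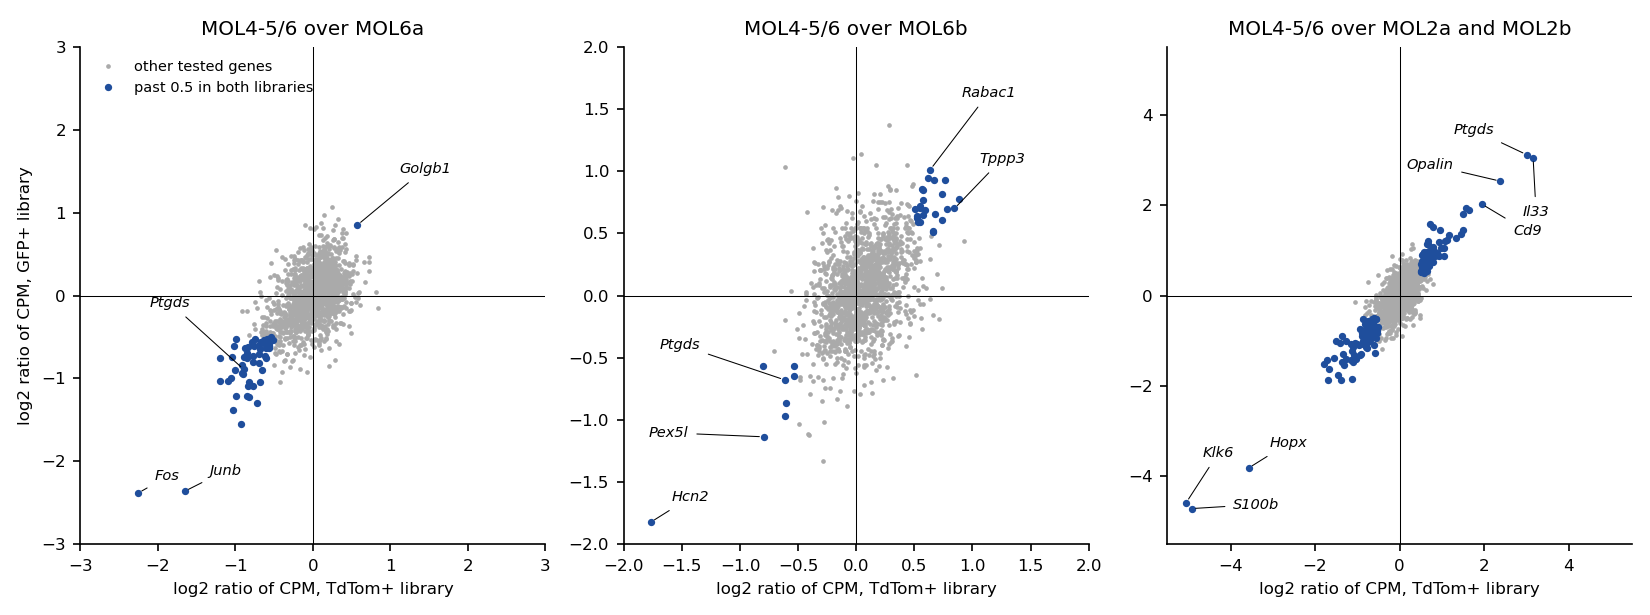
Log2 ratio of CPM of MOL4-5/6 over MOL6a, MOL6b and MOL2a with MOL2b, in the TdTom+ (x axis) and GFP+ library (y axis), with 1 point per tested gene; the panels differ in range. Genes past 0.5 in both libraries are dark: 1 higher and 53 lower than MOL6a, 24 and 8 against MOL6b, and 64 and 77 against MOL2.

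Against MOL6a, the immediate early genes Fos, Junb and Jun were lower. Fos, which encodes a subunit of the AP-1 transcription factor, had 65.5 CPM in TdTom+ and 63.7 CPM in GFP+ cells of MOL4-5/6, and 317 and 337 CPM in MOL6a. The log2 ratios were -2.25 (-2.72 to -1.85) and -2.38 (-3.19 to -1.70). Junb, its partner, was lower by ratios of -1.65 and -2.36 and Jun by -1.02 and -0.60, and the other 9 of 12 listed genes were not tested. Fos and Junb reached the filter only through their level in MOL6a, so the count of 3 adds nothing to their values. MOL1, which is recognised by these genes, had 2029 and 2337 CPM of Fos, while MOL6b had 59.0 and 26.7 CPM, near MOL4-5/6 in TdTom+ and below it in GFP+. Fos was found in 10.3% and 11.1% of thinned MOL4-5/6 cells and 34.4% and 31.3% of MOL6a cells (unthinned, 13.1% and 14.3% against 38.0% and 35.1%). OPC do not lack this gene (39.0% and 36.7%) and give no background for it.

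The chaperone genes Hspa1a, Hspa8 and Hsp90ab1 were lower than in MOL6a. Hspa1a, the inducible Hsp70, had 97.1 and 53.1 CPM in MOL4-5/6 against 186 and 157 CPM, and reached the filter only through MOL6a. Without it, 2 of 5 tested genes of the 12 listed passed the limit, where 3.44% of all tested genes did. Its near-identical copy Hspa1b makes its reads uncertain. Hspa8, the constitutive Hsp70, was lower by log2 ratios of -0.52 and -0.54, and Hsp90ab1, a cytosolic Hsp90, by -0.57 and -0.61 at levels of 1621 and 1502 CPM. The mitochondrial share, 1.48% and 1.55% of UMIs, was above that of MOL6a (1.34% and 1.32%) and below that of MOL6b (1.72% and 1.83%), and its part in these differences was not tested.

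Cd81, which encodes a tetraspanin, was among the named genes lower than in MOL6a, with 920 and 981 CPM against 2114 and 2006 CPM, log2 ratios of -1.20 (-1.32 to -1.08) and -1.03 (-1.23 to -0.84). Of other tetraspanin genes, Cd9 (-0.85 and -1.21) and Cd63 (-0.84 and -1.09), chosen for this comparison after their values were seen, were lower, while Tspan2 had ratios of -0.15 and -0.03. Itm2b, which encodes an integral membrane protein, was lower by -1.09 and -1.03. Apoe had 1279 and 1438 CPM against 2660 and 2866 CPM in MOL6a. Tecr, a reductase of very long chain fatty acid synthesis, had 265 and 195 CPM against 543 and 508 CPM. Phgdh, the first enzyme of serine synthesis, had 122 and 124 CPM against 244 and 289 CPM. With both libraries together, Cd81, Cd9, Cd63, Itm2b, Apoe, Tecr and Phgdh were between 0.451 (Cd81) and 0.531 (Cd63) of their MOL6a level. Golgb1, which encodes the Golgi tether giantin, was the single gene past the limit on the higher side, at 160 and 159 CPM against 107 and 87.9 CPM, and reached the filter only through MOL4-5/6.

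Of the 10 MOL5/6 markers, Ptgds alone passed the limit against MOL6a, with log2 ratios of -0.89 and -0.89, and the list's medians were -0.20 and -0.14. Opalin, a myelin membrane protein gene, was at 1334 and 1317 CPM against 1673 and 1655 CPM (-0.33 and -0.33). Il33 had ratios of -0.27 and -0.30, short of the limit. The 16 structural myelin genes had medians of -0.14 and -0.22, with 12 below 0 in both libraries, where 463 of all 1539 tested genes were, and only Cldn11, which encodes the tight junction protein of the myelin sheath, past the limit (2996 and 3095 CPM against 4762 and 4579). Cnp (-0.49 and -0.48) and Mog (-0.47 and -0.53) came close, whereas Mbp (0.19 and 0.11) and Mobp (0.22 and 0.16) were on the other side of 0. Most of the myelin list was thus lower than in MOL6a, mainly by amounts short of the limit, while 3 genes were above 0 in both libraries. Cers2, a ceramide synthase of very long chain sphingolipids, was the 1 of 12 tested fatty acid and galactolipid genes past the limit (-0.66 and -0.89), and Slc25a5, a mitochondrial ADP/ATP carrier gene, the 1 of 6 of axon support (-0.73 and -1.30), which reached the filter only through MOL6a. Of all tested genes 3.44% were lower.

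Against MOL6b, the clearest difference was in an ion channel. Hcn2, which encodes a hyperpolarisation-activated cation channel, had 98.3 and 106 CPM in MOL4-5/6 and 337 and 378 CPM in MOL6b, log2 ratios of -1.77 (-2.16 to -1.41) and -1.82 (-2.45 to -1.26). Pex5l, whose product TRIP8b is known to bind HCN channels, had 448 and 411 CPM against 779 and 904 CPM, ratios of -0.80 and -1.14. Levels of Hcn2 in MOL6a, 97.2 and 100.4 CPM, were those of MOL4-5/6, and MOL2b (387 and 424 CPM) and MOL2/4 (663 and 481 CPM) resembled MOL6b or exceeded it. Hcn2 was found in 16.1% (11.5% to 21.5%) and 22.2% (13.7% to 32.8%) of thinned MOL4-5/6 cells, 42.9% and 49.6% of MOL6b cells, and 7.32% and 10% of OPC (unthinned, 19.8% and 19.4%, 42.9% and 50.7%, and 6.25% and 8.57%). The interval of OPC in GFP+, 2.11% to 26.5%, overlaps that of MOL4-5/6, so a low level there could not be told from background. Ptgds was lower by ratios of -0.62 and -0.68. Nfasc, which encodes the cell adhesion protein neurofascin, was lower by -0.54 and -0.57, and Omg, the oligodendrocyte myelin glycoprotein, by -0.81 and -0.56, the latter with an interval of -1.24 to 0.08. Eml1, Serinc5 and Eif4g2 completed the 8, with ratios between -0.97 and -0.54. Omg, Eml1 and Serinc5 reached the filter only through MOL6b.

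On the higher side against MOL6b, the first gene by the smaller of its ratios was Psmb2, a proteasome subunit gene, with 158 and 163 CPM against 84.8 and 94.6 CPM. The small GTPase of late endosomes Rab7 had ratios of 0.78 and 0.70, Rabac1, which encodes a Rab-binding protein of the Golgi, 0.64 and 1.01, and Btf3, a subunit of the nascent polypeptide-associated complex, 0.68 and 0.65. Anp32a, which encodes an acidic nuclear phosphoprotein, had 0.76 and 0.93 and Nmral1 0.67 and 0.93. Psmb2, Anp32a and Nmral1 reached the filter only through MOL4-5/6. Of the 11 tubulin and microtubule genes tested, Stmn1, which encodes the tubulin-sequestering protein stathmin (2283 and 2252 CPM against 1368 and 1481), and Tppp3, a tubulin polymerisation-promoting protein gene (870 and 694 CPM against 484 and 427), passed the limit and none did on the lower side, where 1.61% of all tested genes were higher and 0.538% lower. The list's medians were 0.28 and 0.04, the latter at the median of all genes and below 0 with TMM scaling, and after thinning they were 0.13 and 0.24.

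Of the MOL5/6 markers, Ninj2, an adhesion protein gene, was higher than in MOL6b (187 and 159 CPM against 125 and 87.3) and Ptgds lower, and the 10 had medians of -0.04 and -0.00. Gstp1, a glutathione S-transferase gene, had ratios of 0.66 and 0.52, with reads that a near-identical copy may share, and Hsp90aa1, an inducible Hsp90, 0.51 and 0.70. Of 62 respiratory chain genes tested, 39 were above 0 in both libraries and 2 below, with medians of 0.15 and 0.19. Over all tested genes 576 of 1487 were above and 355 below, with medians of 0.05 and 0.04. Atp5h, a subunit of the ATP synthase, was the 1 member past the limit (591 and 606 CPM against 403 and 366). Against MOL6a, the same list was split, with 21 above and 23 below 0 and medians of -0.01 and -0.00. Structural myelin genes had 7 above 0 and 5 below, with Nfasc the only member past the limit. Mal (0.45 and 0.51) and Cldn11 (0.47 and 0.60), both of compact myelin, were just short of it.

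Of the 3 comparisons with named labels, the one with MOL2a and MOL2b gave the largest ratios. Il33 was 8.76-fold and Ptgds 8.24-fold higher with both libraries together, with log2 ratios of 3.16 (2.89 to 3.48) and 3.05 (2.66 to 3.50) for Il33 and of 3.01 (2.94 to 3.08) and 3.12 (3.02 to 3.22) for Ptgds. Opalin had 1334 and 1317 CPM against 255 and 227 CPM (2.38 and 2.53). Cd9, which had been lower than in MOL6a, was 1.94 and 2.03 above MOL2, and Apoe 1.65 and 1.89, so that for both genes MOL4-5/6 lay between these labels. Cd63 (1.5 and 1.45), Gstp1 (1.57 and 1.94) and Ccp110, which encodes a centriolar protein (1.5 and 1.80), were higher too. Il33, Cd9 and Cd63 reached the filter only through MOL4-5/6. The 9 tested MOL5/6 markers had medians of 0.57 and 0.52, with Ptgds, Il33, Jph4 (0.97 and 1.45) and Qdpr (0.93 and 1.18) higher and Apod, which encodes apolipoprotein D, lower (-0.73 and -0.83). Over all tested genes 4.2% were higher and 5.06% lower, with medians of 0.04 and 0.06.

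On the lower side were the MOL2 markers Klk6 (-5.05 and -4.58), S100b (-4.92 and -4.71), Hopx (-3.57 and -3.81) and Spock3 (-1.28 and -1.01). The first 3 reached the filter only through their level in MOL2, so their number is no support for these values. Hcn2 had ratios of -1.69 and -1.86. Cd59a, which encodes an inhibitor of complement, had 79.4 and 99.2 CPM against 256 and 309 CPM. Pmp22, a peripheral myelin protein gene, had 137 and 181 CPM against 451 and 485 CPM. The lipid droplet gene Plin3 (-1.78 and -1.51) and the calcium-binding protein gene S100a6 (-1.46 and -1.76) completed the named genes, and Cd59a, Plin3 and S100a6 reached the filter only through MOL2. Of 16 structural myelin genes, Mal, Opalin and Tspan2 were higher and Gjb1, which encodes connexin 32, and Gsn, which encodes gelsolin, lower, where 4.2% of all tested genes were higher and 5.06% lower. Mbp (-0.07 and -0.10) stayed short of the limit. Fatty acid and galactolipid genes had medians of -0.42 and -0.46 over 12 tested, beside 0.04 and 0.06 over all genes, with the fatty acid elongase gene Elovl5 and the galactolipid synthesis genes Ugt8a and Gal3st1 lower. Of these, Elovl5 reached the filter only through MOL2. Mapt, which encodes tau, was higher (1256 and 1448 CPM against 796 and 737), and Tuba1a, an alpha tubulin gene, and Tppp3 were lower. Kcnj10, which encodes the inward rectifier Kir4.1, was lower with Gjb1 in the list of axon support.

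**Figure D5:**
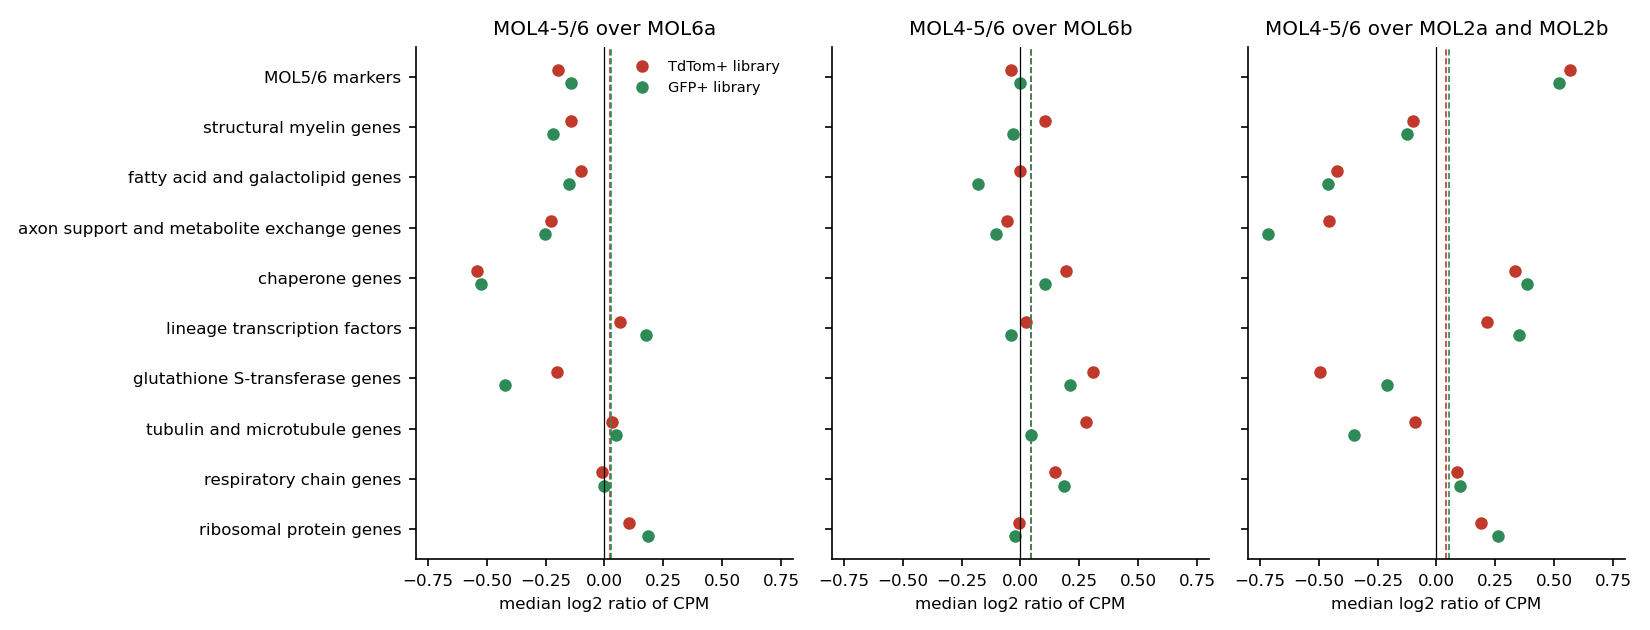
Median log2 ratio of CPM of MOL4-5/6 over MOL6a, MOL6b and MOL2a with MOL2b for the gene lists, per library, with dashed lines at the median of all tested genes. Chaperone genes lie lowest against MOL6a among lists of 4 or more tested genes (-0.54 and -0.52; 1 of their 6 genes, Hspa1a, reached the filter only through MOL6a), and MOL5/6 markers reach 0.57 and 0.52 against MOL2.

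Ribosomal protein genes made up a median of 8.10% of a cell's UMIs in TdTom+ and 8.27% in GFP+, close to MOL6b (8.15% and 8.34%) and above MOL6a (7.64% and 7.72%), MOL2a (7.34% and 7.54%) and MOL2b (7.11% and 6.88%). None of the 79 tested genes passed the limit in any of these comparisons. Against MOL6a 64 were above 0 in both libraries and 2 below, with medians of 0.10 and 0.18, beside 575 and 463 of all 1539 tested genes and medians of 0.02 and 0.03. Against MOL2a and MOL2b 75 were above 0 and 0 below, with medians of 0.19 and 0.26, beside 668 and 469 of all 1523 and medians of 0.04 and 0.06. The medians of both comparisons kept their sign with TMM scaling, after thinning, and when CPM was averaged over cells. Against MOL6b 13 were above and 25 below 0, with medians near 0. Iron genes (3 tested) and lineage transcription factors (8) had no member past the limit against MOL6a or MOL6b. None of 23 cholesterol synthesis genes or of the MHC class I genes reached the mean of 100 CPM in any of the comparisons.

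Against all other cells together, 8 of 1524 genes were higher (0.525%) and 31 lower (2.03%). Il33 led the higher ones (606 and 567 CPM against 324 and 309), followed by Gstp1 and Opalin (0.61 and 0.71). The others were Hecw2, a ubiquitin ligase gene, Ccp110, Jph4 (0.53 and 0.77), Erbb2ip and Csrp1, a LIM domain protein gene (3310 and 3155 CPM against 2329 and 2151). After thinning, the log2 ratio of Csrp1, taken from the mean CPM of both libraries, was 0.44 and under the limit. Hecw2 reached the filter only through MOL4-5/6. Il33, Gstp1 and Opalin were lower in MOL4-5/6 than in MOL6a. Their log2 ratios over MOL6a were -0.27 and -0.30, -0.44 and -0.49, and -0.33 and -0.33, in that order. Of the same list as Il33 and Jph4, Apod (1155 and 1289 CPM against 1651 and 2296) and Trf (1868 and 2210 CPM against 2731 and 3211) were lower. Ptgds had ratios of 0.29 and 0.32 and did not pass the limit; MOL6a, MOL6b and MFOL1, with higher levels, are among those cells. The lowest were Klk6 (-4.52 and -4.37), S100b (-3.80 and -3.62), Fos (-2.37 and -2.36) and Hcn2 (-1.19 and -1.29), of which Klk6, S100b and Fos reached the filter only through the other cells. Jun (-1.54 and -0.89), Marcksl1, Gsn and Sccpdh followed.

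Markers of other cell types were scarce. The sum of 9 astrocyte markers was 155 CPM in TdTom+ and 149 CPM in GFP+, similar to MOL6a (146 and 159) and below MOL6b (193 and 213) and MOL2a with MOL2b (347 and 289). Aqp4, Gja1 and Sox9 had 0 UMIs in both libraries, and 2 TdTom+ and 0 GFP+ cells held 3 or more of the markers. Microglial markers had 4 UMIs in TdTom+, and 0 in GFP+, which allows a level of up to 10.6 CPM. Neuronal markers had 2 and 2 UMIs. Endothelial markers had 2 in TdTom+ and 0 in GFP+. Hba-a1, of red blood cells, had 26.5 and 17.7 CPM, and Foxj1, the 1 ependymal marker with a row, 55.5 and 49.6 CPM. OPC markers summed to 12.6 and 14.2 CPM, against 12724 and 12335 CPM in OPC.

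Between TdTom+ and GFP+ cells of MOL4-5/6, the intervals of the main markers included 0. The log2 ratio TdTom+ over GFP+ was -0.04 for Ptgds (-0.10 to 0.02), 0.10 for Il33 (-0.16 to 0.36), 0.02 for Opalin (-0.15 to 0.19) and 0.01 for Mbp (-0.05 to 0.07). Of 1519 genes, 98 had an interval without 0 at any size of the ratio. The intervals were not adjusted for the number of genes, so counting error alone would leave 0 out of some of them. How many genes this concerns was not tested. Of the 1519 genes, 41 (2.7%) had a ratio of at least 0.5 in size with an interval without 0. Of the 41, 18 were higher in TdTom+ and 23 in GFP+. Of the 256 genes that averaged 500 CPM or more, 2 were among the 41. These were Sox10, the transcription factor of the OL lineage (1071 against 694 CPM, 0.63), and Gstp1 (809 against 535 CPM, 0.60). In the cells of all other labels, these genes had ratios of 0.67 and 0.65. Polr2f, a subunit of RNA polymerase II, was higher in GFP+ (226 against 365 CPM, -0.69), with -0.58 in the other labels. It lies beside Sox10 on chromosome 15 (79141009 to 79151774 and 79154908 to 79165240). These 3 were the only ones of the 41 that were also past 0.5 on the same side in the other labels. The differences between the libraries seen in both sets of cells are not particular to MOL4-5/6.

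The others were genes of low level. Setd8, a histone methyltransferase gene, had the largest ratio, 0.93 (0.39 to 1.52), at 223 CPM in TdTom+ and 117 CPM in GFP+, with 0.23 in the other labels. Clk4, a kinase of splicing factors (0.88), Sgk1, a glucocorticoid-induced kinase (0.86), Dync1li2, a dynein chain (0.84), Nudt3 (0.80) and Ctcf, a chromatin insulator protein (0.72), came next, each from 20 to 26 UMIs in the GFP+ cells. All but Setd8 of these reached the filter only through TdTom+. Higher in GFP+ were Pfdn1 (-0.82), Cdv3 (-0.74), Armc1 (-0.72), Ccnl1 (-0.71) and C1d (-0.68), which reached it only through GFP+ and so had to differ. Of the 41 genes, 27 were on the same side of 0 in the other labels. Trf, an iron carrier gene of MOL5/6, had 1868 CPM in TdTom+ and 2210 CPM in GFP+, a ratio of -0.24 (-0.38 to -0.11) beside -0.23 in the other labels.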

How the data were processed

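The authors sorted TdTom+ and GFP+ cells, loaded 3000 cells per sample, aligned reads with STAR, and list Cell Ranger 2.1.1 and mm10 in their processing notes; the gene annotation is not given in the sources used here. They state a filter of 200 to 3000 genes and less than 5% of UMIs mitochondrial, which 33 deposited cells, 0 of them MOL4-5/6, do not meet; these were kept here and left out in an alternative. The authors integrated both libraries, clustered them (Leiden, resolution 0.8, 30 components, 3000 variable genes) and transferred labels from an earlier data set. The deposited matrix holds, as a signal, each gene's fraction of the cell's UMI count (11733 genes, 2853 cells), and the deposited cell table the UMI count, genes, library and label; 36 of its 40 columns were not used. UMI counts were recovered from the fractions, and 100% of nonzero values came out whole (tolerance 0.01). The design had assumed deposited counts, and the recovered ones took their place.

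UMIs were summed per label and library (CPM). Ratios have exact conditional and shares exact Clopper-Pearson intervals (95%). Thinning to 2400 UMIs used seed 1. Scrublet marked 13 cells (0.456%), 0 of them MOL4-5/6, too few to count as a working caller, and no cell was removed. Named genes were the members of the lists, the 8 highest and 8 lowest past the limit for each label (by the smaller of the 2 library ratios), the 8 highest and lowest against all other cells, and the 6 highest and lowest between libraries. Values of 2 genes that the rule names are not reported here. The members and lists were chosen with earlier results of these data known. Coordinates come from GENCODE vM21 on GRCm38. Alternatives changed the filter, limit, pseudocount, scaling, thinning, denominator and library. Tools were scanpy 1.11.5, scikit-learn 1.9.0, scipy 1.17.1, numpy 2.4.6, pandas 2.3.3 and matplotlib 3.10.9 in Python 3.11.15, and edgeR 4.0.16 (TMM factors only) in R 4.3.3.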

Additional observations from a re-analysis of the deposited data

Results flagged for a closer look

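Pfdn1, a prefoldin subunit gene, moved in opposite directions in MOL4-5/6 and in the cells of all other labels. In MOL4-5/6 it had 95.8 CPM in TdTom+ (76 UMIs) and 170.0 CPM in GFP+ (48 UMIs), a log2 ratio TdTom+ over GFP+ of -0.82 (-1.37 to -0.27). It reached the mean of 100 CPM only through GFP+. In the other labels the ratio was 0.18 (0.01 to 0.36), at 133 and 117 CPM. Each value comes from 1 library per origin, and the difference between them was not tested. Pfdn1 is 1 of the 41 genes picked out of 1519 by ratio and interval, and its interval was not adjusted for that choice.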

How the results depend on the processing

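Counts of genes depended on the filter, the limit and the use of both libraries. Given as higher and lower than MOL6a, then MOL6b, then MOL2a with MOL2b, they were 15 and 92, 48 and 22, and 100 and 139 with a filter of 50 CPM, 0 and 27, 14 and 5, and 36 and 41 at 200 CPM, and 583 and 623, 487 and 556, and 672 and 992 with no filter. With a limit of 1 they were 0 and 5, 0 and 1, and 14 and 27. In the TdTom+ library alone they were 23 and 98 for MOL6a and 57 and 13 for MOL6b, and in GFP+ alone 71 and 121, 141 and 61, and 164 and 160, where counting error is larger. After thinning, 5 genes were higher than in MOL6a. The genes that differ between the libraries numbered 85 at 50 CPM, 8 at 200 CPM, 246 with no filter and 0 with a limit of 1. With mature labels as denominator MOL4-5/6 was 17.4% of TdTom+ and 13.4% of GFP+ cells. Alternatives for single genes were run only for those named by rank, the highest and lowest against each label and against all other cells. No ratio of these changed sign. Other list members were not covered, and some differed in sign between the libraries, such as Kcnj10 over MOL6a (0.49 and -0.08). The balance of higher and lower genes turned against MOL6b with no filter and against MOL2a with MOL2b in GFP+ alone. The other 50 alternative values of these results, and 249 values of genes named by rank, stayed within the spread allowed. A further 36 values of genes named by rank moved past it without changing sign. After thinning, the log2 ratio of Klk6 over MOL2a with MOL2b, taken from the mean CPM of both libraries, was -3.96 in place of -4.71, and that of Csrp1 over all other cells, 0.44 in place of 0.53, fell under the limit. Unmoved were the counts under TMM factors, under CPM averaged over cells and with a pseudocount of 10 CPM. No paired analysis was possible because each origin has a single library and carries no replicate number. Depth limits genes under about 100 CPM, above all in the 98 GFP+ cells.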
